A study of Mus musculus with 56 samples.

Results

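The TGF-beta receptors and SMADs were followed as 10 genes in OVA:Kb-specific CD8+ T cells (TFGS). The mice had met paternal antigen through a skin graft, a pregnancy, both or neither. The genes were taken as the rows of the raw count table whose Ensembl identifiers carry the symbols *Tgfb1*, *Tgfbr1*, *Tgfbr2*, *Tgfbr3*, *Smad2*, *Smad3*, *Smad4*, *Smad7*, *Ski* and *Skil*. They are 10 of the 55359 genes in the table, and all 10 passed the filter on low counts that left 19659 genes for testing. TFGS were sorted from spleen and lymph nodes of young adult female mice of the C57BL/6 genotype, 200 cells to a library, and sequenced with SmartSeq2 in 1 run. Naive mice (n = 3) were unmated and ungrafted. Sensitized mice (n = 4) had rejected a skin graft from 2W-OVA.BALB/c males at least a month earlier and were not mated. After mating with 2W-OVA.BALB/c males, naive mice gave the subsets N+P C1 (PD1-, n = 3) and N+P C5 (PD1+CD73+, n = 3) in the first days after birth. Sensitized mice mated in the same way gave S+P C4 (PD1-, n = 6), S+P C5 (PD1+CD73+, n = 6) and S+P C7 (PD1+CD73-, n = 5). The post-partum subsets are gates on 2 surface proteins, so their differences from Naive or Sensitized cells join the effect of pregnancy and that of the gate. Each sample was a replicate number and subset, and n counts replicate numbers in the labels. The study's own description gives fewer biological samples per group than the 6 numbers of S+P, so that these are separate mice is not settled. Samples held 15547934 to 54809406 counts. A level per sample depends on both the cells sorted and the RNA of each cell, so fewer cells of a type and less RNA per cell cannot be told apart.

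TGF-beta is a cytokine that is secreted in a latent form and restrains T cells once it is released. It binds the receptor kinase TGFBR2, which activates TGFBR1, and TGFBR1 phosphorylates SMAD2 and SMAD3, which join SMAD4 and act on genes in the nucleus. TGFBR3 (betaglycan) is a co-receptor that presents ligand, SMAD7 is a feedback inhibitor of the receptors, and SKI and SKIL (SnoN) are corepressors that bind SMADs. In CD8+ T cells the pathway is known for holding naive cells quiescent, for limiting cytotoxic genes and for inducing the integrin CD103 in tissue.

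Some libraries stand apart. The counts of 1 column recur in Naive replicate 1 and in replicate 1 of S+P C4, and neither copy was used. In S+P C7, replicates 1 and 2 shared a near-identical column. The copies were averaged and, with the other library of replicate 1, entered as a single sample. Replicates 2 and 3 of S+P C4 and replicate 3 of S+P C7 had 8002, 7436 and 7879 detected genes, against 12383 to 26805 in the other 27 samples. *Tgfb1* and *Tgfbr1* were at 0 counts in all 3 of these samples and above 0 in the other 27. All 8 CD8 T cell markers (*Cd3d*, *Cd3e*, *Cd3g*, *Cd8a*, *Cd8b1*, *Trac*, *Trbc1*, *Trbc2*) were above 0 in all 30 samples, with a summed level of 6668.2 to 16091.7 CPM (counts scaled to library size with TMM factors).

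*Smad3* is described first as the gene with the smallest p of the 10 in the test among all groups, a place that *Smad7* took without the 3 samples with few detected genes. *Smad3* transmits the signal of the receptors and lies on GRCm39 chr9:63554049-63665476 (minus strand). Its levels in Sensitized mice were 65.1, 65.5, 65.1 and 93.0 CPM. In S+P C4 they ran from 34.3 CPM through a median of 76.5 to 159 CPM, and in S+P C5 from 0.915 CPM through 12.4 to 30.3 CPM. These levels rest on 1310 to 3622 counts in Sensitized and 36 to 1405 counts in S+P C5. Each S+P C5 sample was lower than each Sensitized and each S+P C4 sample. The fold change on the log2 scale was -2.40 ± 0.80 (SE) for S+P C5 vs. Sensitized (p = 0.00505, adjusted p = 0.276, edgeR) and -2.58 ± 0.76 for S+P C5 vs. S+P C4 (p = 0.0018, adjusted p = 0.297). Neither passed the threshold of an adjusted p under 0.1. Both comparisons use the same S+P C5 samples and are not independent. DESeq2 called both, with adjusted p values of 0.0343 and 0.0038, in comparisons where it called 5.32% and 4.66% of all genes. Without the 3 samples with few detected genes, edgeR called the first (-2.38 ± 0.58, adjusted p = 0.0466, beside 1.02% of all genes) and not the second (-2.23 ± 0.58, adjusted p = 0.155, beside 0.199%).

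Subsets of N+P and of S+P that carry the same replicate number were set side by side as pairs, although the labels do not state that they came from 1 mouse. *Smad3* was lower in S+P C5 than in S+P C4 in 6 of 6 pairs. In pairs that involve S+P C7, the single sample of replicates 1 and 2 was set beside replicate 1 of the other subset, which leaves 5 pairs. The share of all genes that differ the same way in every pair was not computed. A count of pairs thus has no background beside it. S+P C7, the PD1+ cells without CD73, had 65.1, 1.17, 39.7, 38.2 and 90.7 CPM of *Smad3*. The level of 1.17 CPM was in the sample with few detected genes, and the other 4 samples were above the whole of S+P C5. *Smad3* was higher in S+P C7 than in S+P C5 in 4 of 5 pairs, with a log2 fold change of 1.78 ± 0.76 (p = 0.0248, adjusted p = 0.288). Without the samples with few detected genes it was 2.08 ± 0.58 (adjusted p = 0.277).

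In mice that had not been grafted the mean level of *Smad3* lay between those of S+P C5 and S+P C7. It was 21.4, 40.7 and 32.1 CPM in Naive, 4.37, 33.9 and 29.7 CPM in N+P C1, and 33.8, 21.4 and 14.4 CPM in N+P C5. These 3 groups overlapped one another. All Sensitized samples were above all Naive samples, and all S+P C4 samples were above all N+P C1 samples, yet neither comparison passed the test (adjusted p = 1 and adjusted p = 0.574). The difference in *Smad3* between PD1+CD73+ post-partum cells and their unmated controls was not shown to depend on prior grafting, since the interaction was -1.97 ± 1.29 on the log2 scale (p = 0.138, adjusted p = 1). In the test of any difference among the 7 groups, *Smad3* had the smallest p of the 10 genes (p = 0.0282, adjusted p = 0.185), and without the 3 samples with few detected genes its adjusted p was 0.097, while that of *Smad7* was 0.0037 and the smaller of the 2.

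**Figure D1:**
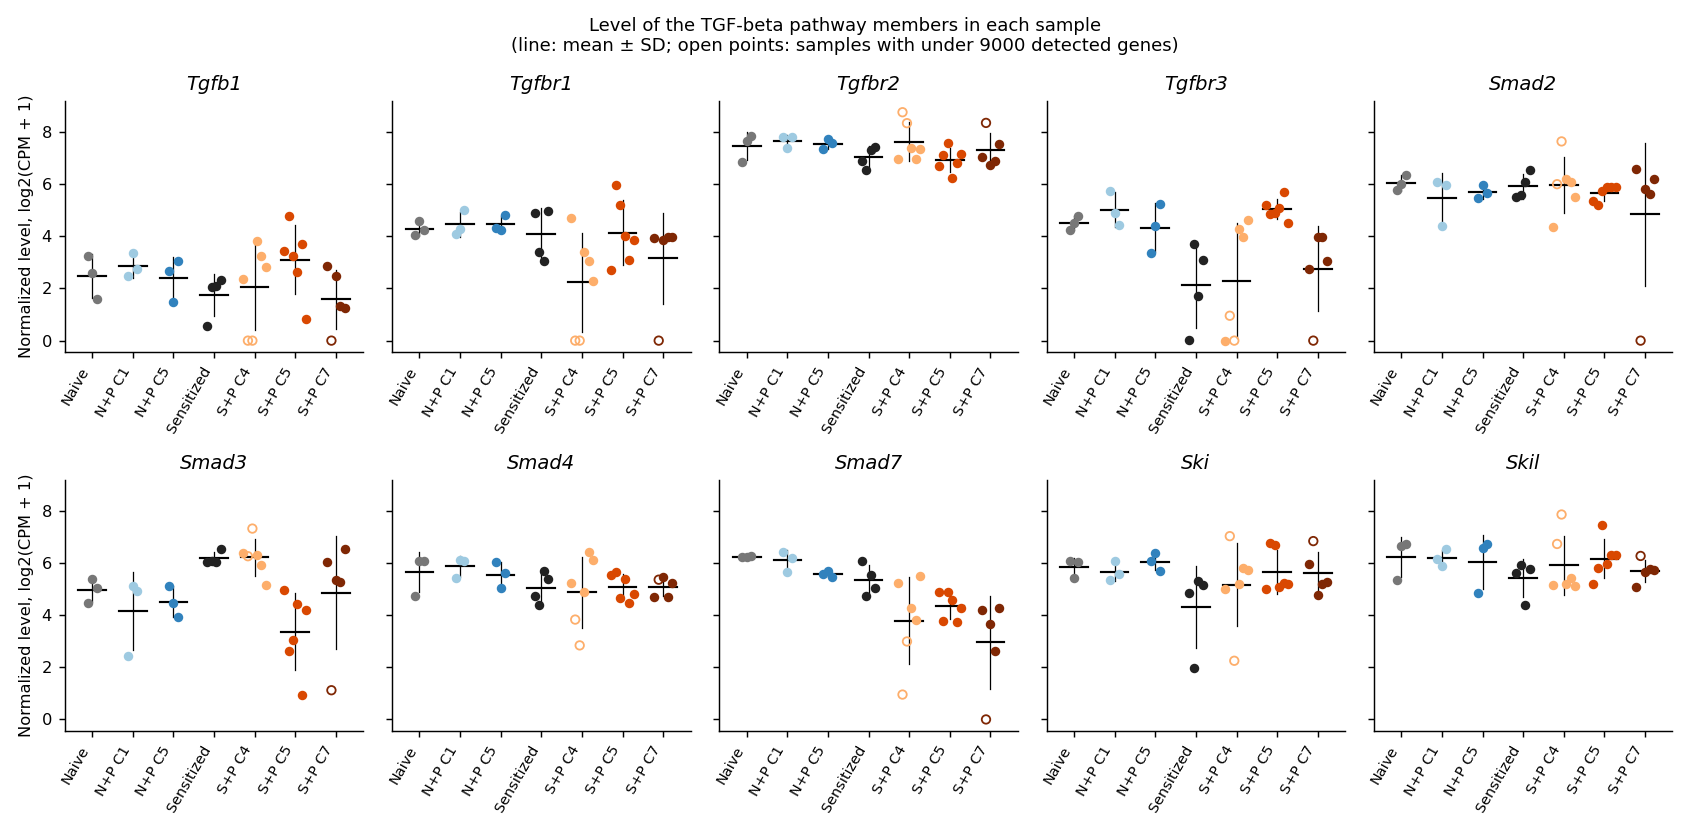
Level of each gene (y axis, log2(CPM + 1)) in each of the 30 samples by group (x axis), with the mean and SD. Open points are the 3 samples with under 9000 detected genes. *Smad3* in S+P C5 lies under all Sensitized and S+P C4 samples, while *Tgfbr2* stays between 74.0 and 434 CPM throughout.

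The region just before *Smad3* is printed here because the calls that DESeq2 made among the pairwise comparisons were at this gene. It holds the 250 bases before the start of the Ensembl canonical transcript, GRCm39 chr9:63665477-63665726, minus strand. Capitals mark the match to CAGAC, the core letters that SMAD3 and SMAD4 bind, read here on the other strand as GTCTG.
Smad3 upstream: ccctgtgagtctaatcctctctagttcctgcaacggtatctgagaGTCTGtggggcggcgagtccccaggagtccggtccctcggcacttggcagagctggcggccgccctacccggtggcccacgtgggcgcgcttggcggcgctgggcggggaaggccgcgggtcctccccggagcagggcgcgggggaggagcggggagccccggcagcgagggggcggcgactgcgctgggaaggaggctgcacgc
The region held 1 match to CAGAC and none to the palindrome GTCTAGAC or to the AP-1 letters TGANTCA, each searched on both strands. Of the 21770 regions of this length before protein-coding genes, 41.3% held CAGAC, 0.239% held GTCTAGAC and 6.17% held TGANTCA. A match to CAGAC is thus common and describes the letters only.

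Of the 10 genes, 0 passed both thresholds (an adjusted p below 0.1 with a log2 fold change of more than 0.9 in size) in any of the 12 pairwise comparisons by edgeR. Of the 120 pairs of gene and comparison, 5 had an unadjusted p under 0.05, and DESeq2 called 2, both at *Smad3*. By edgeR few genes of any kind were called, while DESeq2 called 2.47% to 5.32% of all genes in each of the 12 comparisons. All tested genes passed both thresholds by edgeR at a rate of 0.0407% for N+P C5 vs. Naive, 0% for N+P C1 vs. Naive, 0.00509% for N+P C5 vs. N+P C1 and 0.153% for Sensitized vs. Naive. The rate was 0.00509% for S+P C4 vs. Sensitized, 0.0712% for S+P C5 vs. Sensitized and 0.0305% for S+P C7 vs. Sensitized. It was 0.0305% (S+P C5 vs. S+P C4), 0.00509% (S+P C7 vs. S+P C4) and 0% (S+P C7 vs. S+P C5) between subsets of sensitized mice, and 0% (S+P C5 vs. N+P C5) and 0.061% (S+P C4 vs. N+P C1) between sensitized and naive mice. The interaction called 0 of the 10 genes beside 0.0254% of all genes, with 0 at an unadjusted p under 0.05 beside 6.43% and 0 by DESeq2 beside 4.1%. The test among the 7 groups called 0 of 10 beside 1.84% of all genes, with 1 (*Smad3*) at an unadjusted p under 0.05 beside 20.6%, and 0 by DESeq2 beside 2.48%.

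**Figure D2:**
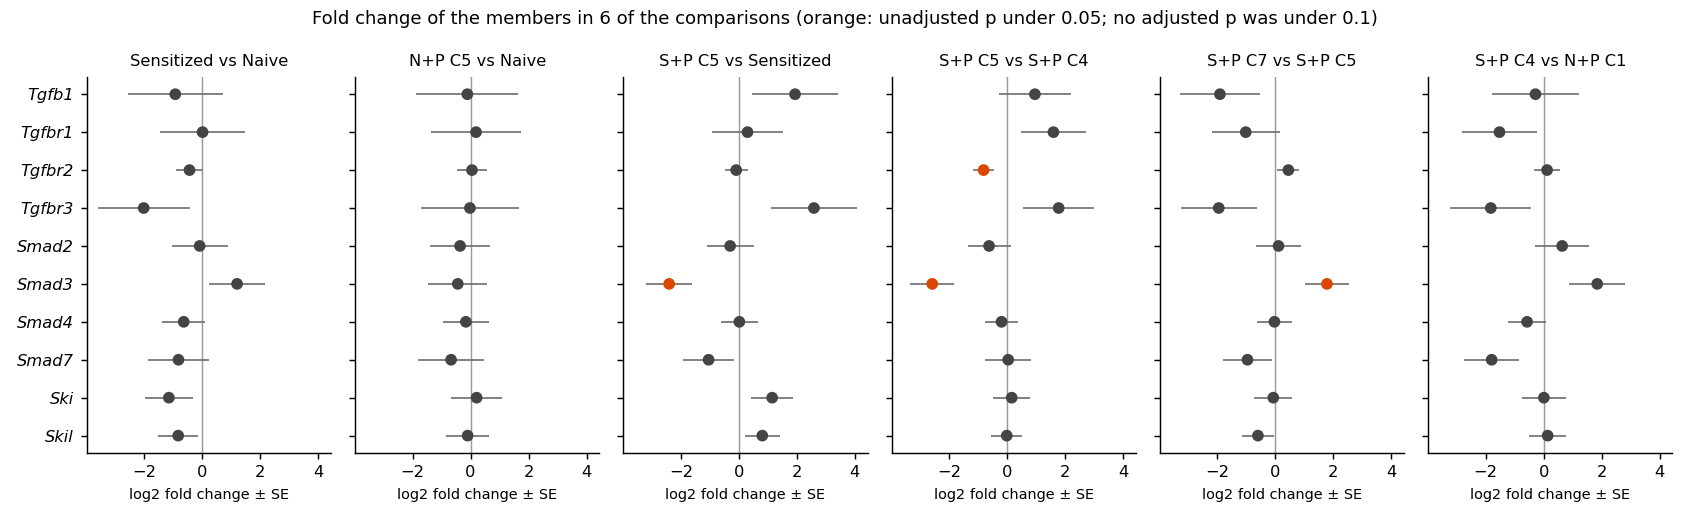
Fold change of each gene (x axis, log2, points) with its SE (bars) in 6 comparisons, genes in rows. The orange points have an unadjusted p under 0.05, which are *Smad3* in 3 of these comparisons and *Tgfbr2* in S+P C5 vs. S+P C4, and no adjusted p was under 0.1.

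The ligand gene *Tgfb1* (chr7:25386390-25404506) was the lowest of the 10 per length. Its mean over the 30 samples was 1.1 CPM per kb of exon, and its median was 4.79 CPM. S+P C5 had the highest group mean, 10.4 ± 8.69 CPM (SD, n = 6), and Sensitized the lowest, 2.71 ± 1.54 CPM (n = 4). The range in S+P C5 (0.785 to 26.2 CPM) took in the whole range in Sensitized except for the lowest sample at 0.467 CPM, and no comparison reached an unadjusted p under 0.05.

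*Tgfbr2* (chr9:115913361-116004800), the receptor that binds ligand, was the highest of the 10 per length, at a mean of 19.8 CPM per kb against 2.54 for *Tgfbr1*, the kinase it activates, and 2.71 for the co-receptor *Tgfbr3*. It was also among the least variable, with 74.0 to 434 CPM over 30 samples and no sample at 0. Levels in S+P C5 ran from 74.0 CPM through 123 to 190 CPM, and in S+P C4 from 123 CPM through 163 to 434 CPM. The groups overlapped, but *Tgfbr2* was lower in S+P C5 than in S+P C4 in 6 of 6 pairs and higher in S+P C7 than in S+P C5 in 5 of 5. Replicates 2 and 3 of S+P C4 and replicate 3 of S+P C7, with few detected genes, are in these counts. The log2 fold change for S+P C5 vs. S+P C4 was -0.81 ± 0.36 (p = 0.0318, adjusted p = 0.317). The 3 samples with few detected genes had the highest *Tgfbr2* levels of all (434, 323 and 325 CPM). Without them the log2 fold change was -0.19 ± 0.25 (adjusted p = 0.878), and without S+P C4 replicate 2 alone it was -0.48 ± 0.33 (adjusted p = 0.649).

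The levels of *Tgfbr3* (chr5:107249402-107437623) in Sensitized were 0.018, 12.1, 2.25 and 7.6 CPM, in Naive 18.1, 21.9 and 26.7 CPM, and in S+P C5 from 21.8 CPM through 30.9 to 50.6 CPM. Sensitized samples lay under all Naive and all S+P C5 samples, and the first of these levels was a single count. S+P C4 ran from 0 CPM through 7.73 to 23.7 CPM, and S+P C7 held 5.77, 0, 14.9, 14.9 and 7.21 CPM. Every S+P C5 sample was above every S+P C7 sample, and *Tgfbr3* was higher in S+P C5 than in S+P C4 in 5 of 6 pairs. Samples with few detected genes are among these, namely replicates 2 and 3 of S+P C4 (0.937 and 0 CPM) and replicate 3 of S+P C7 (0 CPM). N+P C5 (9.36, 19.8 and 37.0 CPM) and N+P C1 (52.7, 28.4 and 20.8 CPM) overlapped with Naive. None of these differences passed the test, with p = 0.0886 and adjusted p = 0.52 for S+P C5 vs. Sensitized by edgeR, and p = 0.21 and adjusted p = 0.971 for Sensitized vs. Naive.

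**Figure D3:**
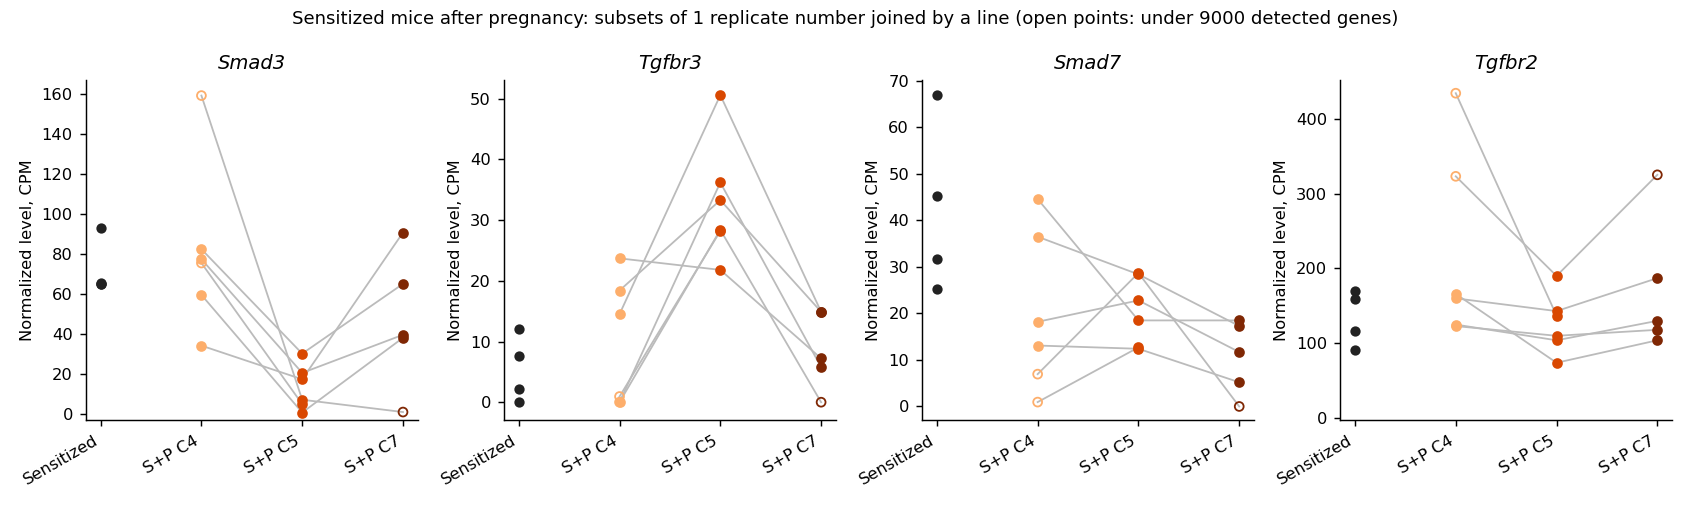
Level (y axis, CPM) of 4 genes in Sensitized mice and in the S+P C4, C5 and C7 cells of sensitized post-partum mice, with a line for each replicate number. *Smad3* is lower in S+P C5 than in S+P C4 in 6 of 6 pairs, while *Tgfbr3* is higher in S+P C5 than in S+P C7 in 5 of 5.

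*Tgfbr1* (chr4:47353134-47414931) ran from 0 CPM through a median of 5.56 to 25.2 CPM in S+P C4 and from 5.44 CPM through 14.2 to 61.8 CPM in S+P C5. The means of these groups, 7.65 ± 9.42 and 23.3 ± 21.9 CPM, were the lowest and the highest, and each was raised by 1 sample (S+P C4 replicate 1 and S+P C5 replicate 2), while the median of S+P C5 was under that of Naive (18.1 CPM). Naive (15.6, 22.7 and 18.1 CPM), N+P C1 (16.1, 18.7 and 30.9 CPM) and N+P C5 (19.2, 18.1 and 27.0 CPM) were close to one another. In the order of group means, each group overlapped with the next apart from Naive and S+P C7, and no comparison reached an unadjusted p under 0.05.

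Among the SMADs that carry the signal, *Smad2* and *Smad4* gave no separation of groups in the pairwise comparisons, where *Smad3* did in some. *Smad2* (chr18:76374327-76445180), the partner of SMAD3 at the receptor, had group means from 49.6 ± 25.7 CPM in N+P C1 to 77.6 ± 62.5 CPM in S+P C4. *Smad4* (chr18:73769343-73836915), the shared partner of both, had means from 34 ± 8.46 CPM in S+P C7 to 58.9 ± 15.2 CPM in N+P C1. In each of the 12 pairwise comparisons the groups overlapped for *Smad2* and for *Smad4*, and neither gene reached an unadjusted p under 0.05. Per length, mean levels over the 30 samples were 7.62 CPM per kb for *Smad3*, 5.66 for *Smad4* and 5.31 for *Smad2*.

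*Smad7* (chr18:75500374-75529006), the inhibitor that the pathway itself induces, had its highest group means in mice that had not been grafted. It measured 73.8, 74.1 and 75.7 CPM in Naive, 86.0, 50 and 72.7 CPM in N+P C1, and 46.4, 50.5 and 43.7 CPM in N+P C5. In Sensitized it was 66.9, 25.3, 45.3 and 31.6 CPM, in S+P C5 from 12.4 CPM through 20.6 to 28.7 CPM, and in S+P C7 17.3, 0, 11.7, 5.2 and 18.5 CPM. S+P C4 ran from 0.937 CPM through a median of 15.6 to 44.6 CPM and overlapped with Sensitized, S+P C5 and S+P C7. All S+P C7 samples were under all Sensitized samples, all Sensitized and all N+P C5 samples under all Naive samples, and all S+P C5 samples under all N+P C5 samples. The log2 fold change for S+P C7 vs. Sensitized was -2.0 ± 0.94 (p = 0.0404, adjusted p = 0.473). *Smad7* was lower in S+P C7 than in S+P C4 in 5 of 5 pairs. The test among the 7 groups gave p = 0.0612 and adjusted p = 0.272 by edgeR. Without the 3 samples with few detected genes, of which S+P C7 replicate 3 had 0 counts of *Smad7*, the adjusted p was 0.0037, and 2 of the 10 genes (*Smad3* and *Smad7*) were then called among the 7 groups beside 3.93% of all genes.

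The corepressor genes showed wide spread within groups. *Ski* (chr4:155238532-155307543) was lowest in Sensitized, with 27.8, 2.9, 38.6 and 34.3 CPM, all under the Naive levels of 65.9, 41.9 and 64.9 CPM, but with p = 0.173 and adjusted p = 0.88. It was higher in N+P C5 than in N+P C1 in 3 of 3 pairs (group means 66.8 ± 15.9 and 51.0 ± 13.9 CPM, p = 0.665, edgeR) but lower in S+P C5 than in S+P C4 in 5 of 6 pairs. *Skil* (chr3:31148816-31176740) had group means from 45.5 ± 18 CPM in Sensitized to 81.1 ± 35.9 CPM in Naive, and was lower in S+P C7 than in S+P C5 in 5 of 5 pairs. Neither gene reached an unadjusted p under 0.05 in any comparison.

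Samples of 2 groups did not overlap in 13 of the 120 pairs of gene and comparison, and 10 of the 13 were lower in the first group named. In Sensitized vs. Naive this held for 4 of 10 genes (*Smad3* higher, and *Smad7*, *Tgfbr3* and *Ski* lower) beside 7.59% of all genes. It held for 2 of 10 in S+P C5 vs. Sensitized (*Smad3* and *Tgfbr3*) beside 2.88%, and for 2 of 10 in S+P C4 vs. N+P C1 (*Smad3* and *Smad7*) beside 3.29%. It held for 1 of 10 in N+P C5 vs. Naive (*Smad7*, 12.9%), S+P C7 vs. Sensitized (*Smad7*, 2.14%), S+P C5 vs. S+P C4 (*Smad3*, 0.687%), S+P C7 vs. S+P C5 (*Tgfbr3*, 0.397%) and S+P C5 vs. N+P C5 (*Smad7*, 2.67%), with the share of all genes in brackets. It held for 0 of 10 in N+P C1 vs. Naive (7.3%), N+P C5 vs. N+P C1 (10.8%), S+P C4 vs. Sensitized (0.799%) and S+P C7 vs. S+P C4 (0.32%). Several of these comparisons share samples. At an unadjusted p under 0.05, S+P C5 vs. Sensitized had 1 of 10 genes beside 13% of all genes, S+P C7 vs. Sensitized 1 beside 10.2%, S+P C5 vs. S+P C4 2 beside 13.3%, and S+P C7 vs. S+P C5 1 beside 12.7%. The other 8 comparisons had 0 of 10, where the share of all genes was 5.34% (N+P C5 vs. Naive), 3.25% (N+P C1 vs. Naive), 4.34% (N+P C5 vs. N+P C1), 7.84% (Sensitized vs. Naive), 12.7% (S+P C4 vs. Sensitized), 15.9% (S+P C7 vs. S+P C4), 5.9% (S+P C5 vs. N+P C5) and 9.23% (S+P C4 vs. N+P C1). As a group the 10 genes had a median log2 fold change of -0.73 for Sensitized vs. Naive, with 8 estimates below 0, beside 0.04 over all genes. The median was 0.52 for S+P C4 vs. Sensitized, with 8 estimates above 0, beside -0.14 over all genes, and -0.44 for S+P C7 vs. S+P C4, with 8 below 0, beside 0.24. In S+P C7 it was -0.33 against S+P C5 (beside 0.02) and 0.01 against Sensitized (beside 0), and in S+P C5 it was 0.16 against Sensitized (beside -0.01) and 0.02 against S+P C4 (beside 0.11). It was -0.12 for S+P C5 vs. N+P C5 beside 0 and -0.14 for S+P C4 vs. N+P C1 beside -0.04. In mice that had not been grafted it was -0.11 for N+P C5 vs. Naive, 0.02 for N+P C1 vs. Naive and -0.07 for N+P C5 vs. N+P C1, each beside 0.

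The spread between technical libraries limits single values. In the 23 samples with 2 libraries, the median difference between the libraries on the log2(CPM + 1) scale, with CPM taken per library total, was 0.42 for *Tgfbr2*, 0.44 for *Tgfbr3* and 0.79 for *Smad3*, and 1.26 for *Tgfbr1*. *Tgfbr3* in Sensitized replicate 2 was 242 counts in 1 library and 0 in the other, and *Smad3* in S+P C5 replicate 5 was 0 and 36 counts. The SD within groups on the log2(CPM + 1) scale was 1.21 for *Smad3*, 1.3 for *Tgfbr3* and 0.5 for *Tgfbr2*.

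**Figure D4:**
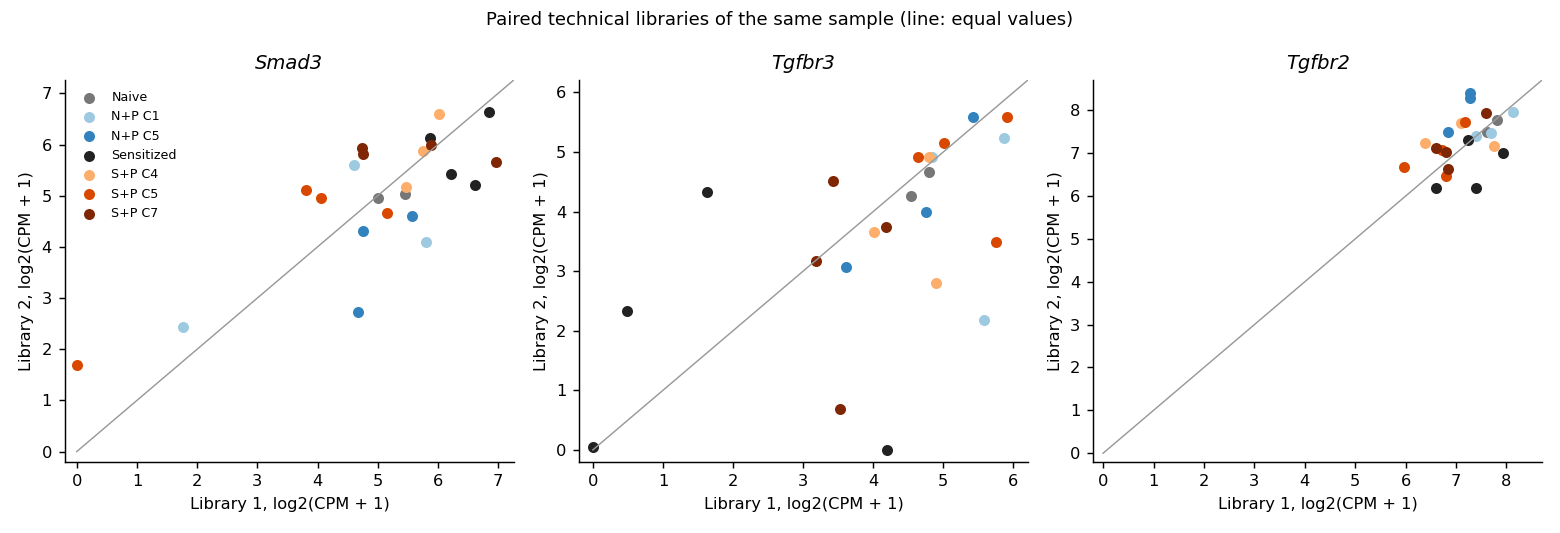
Level in 1 library (x axis) against the other library (y axis) of the same sample, both as log2(CPM + 1), for 23 pairs, with a line at equal values. *Tgfbr2* pairs sit near the line, while *Tgfbr3* falls to 0 in 1 of the 2 libraries of Sensitized replicate 2.

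The genes whose levels followed these most closely over the 30 samples were found by Pearson's r of log2(CPM + 1) among 8264 genes. For *Smad3* they were *Zyx* (0.808), which encodes the adhesion protein zyxin, *Uchl5* (0.702) and *D16Ertd472e* (0.7). Mean *Zyx* was 279 CPM in Sensitized and 315 CPM in S+P C4 against 115 CPM in S+P C5. For *Smad7* they were *Sh3bp5* (0.879), the potassium-chloride cotransporter gene *Slc12a7* (0.877) and the IL-4 receptor gene *Il4ra* (0.872). Mean *Sh3bp5* was 95.3 CPM in Naive and 4.69 CPM in S+P C7. For *Tgfbr2* they were *Gatad2b* (0.738), *Rai1* (0.733) and *Btg1* (0.713). These values share libraries, groups and scaling and are descriptions only.

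Other genes of the pathway were described by list. Of 12 other genes for ligands, latency and activation, 7 were tested and 2 differed among the 7 groups, beside 1.84% of all genes. *Itgb8*, a chain of the integrin that releases latent TGF-beta, was at 6.27, 3.13 and 11.1 CPM in N+P C5 and at most 0.0994 CPM in Naive. It ran from 0 CPM through 6.67 to 38.2 CPM in S+P C5 and reached at most 0.485 CPM in Sensitized and 0.406 CPM in S+P C4 (adjusted p = 0.0959 among the groups). In S+P C7 it ran from 0 CPM through 0.196 to 5.3 CPM. No pairwise comparison passed the test, with adjusted p values of 0.763 for N+P C5 vs. Naive, 0.276 for S+P C5 vs. Sensitized and 0.297 for S+P C5 vs. S+P C4 (edgeR). S+P C5 replicate 1 had 0 counts of *Itgb8*, and the other 5 S+P C5 samples were above all Sensitized and S+P C4 samples. *Ltbp4*, a latent TGF-beta binding protein gene, had an adjusted p of 0.0324 among the groups and was at 2.35, 192, 1.63, 0.0259 and 4.89 CPM in S+P C7. The level of 192 CPM was in replicate 3, a sample with few detected genes, and its part in the call was not tested.

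Of 11 other receptor genes 0 of 11 tested differed among the groups beside 1.84% of all genes, with 1 at an unadjusted p under 0.05 beside 20.6%. The smallest p values were at *Acvr1c* and *Acvr1*, activin and BMP receptor genes with a median of 0 CPM in each group. Of 21 other SMADs and SMAD regulators, 19 were tested and 0 differed beside 1.84% of all genes, with 0 at an unadjusted p under 0.05 beside 20.6%. *Nedd4l*, a ubiquitin ligase gene for SMADs, had mean levels of 40.9 ± 17.7 CPM in Naive, 29.3 ± 16.6 CPM in N+P C1 and 19.4 ± 18.8 CPM in N+P C5. In grafted mice its means were 7.94 ± 6.22 CPM in Sensitized, 2.21 ± 2.39 CPM in S+P C4, 4.0 ± 4.56 CPM in S+P C5 and 8.03 ± 11.3 CPM in S+P C7. *Tab2*, which encodes an adaptor of the TAK1 kinase, had 34.9 ± 8.56 CPM in Naive, 63.0 ± 17.4 CPM in N+P C1 and 90.0 ± 13.8 CPM in N+P C5. It had 54.0 ± 14.6 CPM in Sensitized, 64.0 ± 22.1 CPM in S+P C4, 107 ± 41.0 CPM in S+P C5 and 67.1 ± 37.3 CPM in S+P C7. The adjusted p among the groups was 0.487 for *Nedd4l* and 0.505 for *Tab2*.

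Of 8 genes known to be induced by TGF-beta, 7 were tested and 0 differed among the groups beside 1.84% of all genes, with 2 at an unadjusted p under 0.05 beside 20.6%. These were *Cdkn2b*, a cell cycle inhibitor gene, and *Tgfbi*, a matrix protein gene, which reached at most 4.78 and 3.64 CPM. Of 8 genes known to be repressed by TGF-beta in CD8+ T cells, all were tested and 3 differed among the groups (*Prf1*, *Fasl* and *Ifng*) beside 1.84% of all genes. At an unadjusted p under 0.05 there were 6 beside 20.6%. The death ligand gene *Fasl* rose from 3.38 ± 2.91 CPM in Naive to 235 ± 96.7 CPM in Sensitized (adjusted p = 0.0566, edgeR), and *Ifng*, the interferon gamma gene, from 3.39 ± 2.87 CPM to 97.0 ± 57.1 CPM (adjusted p = 0.0827). No other gene of these 8 passed both thresholds in Sensitized vs. Naive, where 0.153% of all genes did. The perforin gene *Prf1* had 231 ± 84.5 CPM in Sensitized, 351 ± 271 CPM in S+P C4, 92.3 ± 55.8 CPM in S+P C5 and 318 ± 197 CPM in S+P C7 (adjusted p = 0.0202 among the groups). No pairwise comparison of *Prf1* passed the test, with edgeR adjusted p values of 0.276, 0.199 and 0.278 for S+P C5 against Sensitized, S+P C4 and S+P C7. The list's median log2 fold change was 3.58 for Sensitized vs. Naive beside 0.04 over all genes, and -0.1 for S+P C5 vs. Sensitized beside -0.01.

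Markers of other cells were mostly low, and *Klrb1c* and *Itgax* were, like *Smad3*, higher in each Sensitized sample than in any Naive sample. *Klrb1c*, an NK cell receptor gene, was at 53.3 to 126 CPM in Sensitized and at most 0.0823 CPM in Naive, with medians of 39.2 CPM in S+P C4, 4.51 CPM in S+P C5 and 10.4 CPM in S+P C7. In S+P C7 it reached 225 CPM in replicate 3, where *Smad3* was at 1.17 CPM. *Ncr1*, the other gene of this list of 2, was at 0 counts in 23 of 30 samples, among them all Naive and all S+P C5 samples. The summed level of the 2 genes was 53.3 to 126 CPM in Sensitized, 0.794 to 90.6 CPM in S+P C4, 0 to 62.2 CPM in S+P C5 and 3.54 to 328 CPM in S+P C7. *Klrb1c* had the higher mean of the 2 in each group. The summed level of 6 myeloid and dendritic cell markers was 30.2 to 386 CPM in Sensitized, with *Adgre1* at 0, against 0 to 41.0 CPM in Naive, 1.87 to 106 CPM in S+P C4, 0 to 32.0 CPM in S+P C5 and 33.7 to 1316.3 CPM in S+P C7. *Itgax*, an integrin gene of dendritic cells that activated CD8+ T cells also express, was the most abundant of the 6 in 3 of 4 Sensitized samples (84.3, 29.8 and 33.6 CPM), and *Lyz2* in replicate 1 (332 CPM). *Itgax* was at 0 in Naive and ran from 0 to 76.2 CPM in S+P C4, from 0 CPM through a median of 11.6 to 30.2 CPM in S+P C5, and from 18.8 CPM through 51.8 to 73.2 CPM in S+P C7. *Fasl* and *Ifng* were likewise higher in Sensitized than in Naive, and the mean of *Prf1* was higher in Sensitized and S+P C4 than in S+P C5. The authors' antibodies for cytometry and sorting include ones against the products of *Klrb1c*, *Itgax* and *Adgre1*. How far a sort gate against these proteins removed cells that carry them was not tested. The part of these markers in the *Smad3*, *Fasl*, *Ifng* and *Prf1* results was not tested. *Cd4* was at 0 in 27 of 30 samples and *Foxp3* in 25, and the B cell receptor chain gene *Cd79b* reached at most 61.2 CPM, in N+P C5. The gamma delta T cell gene *Trdc* reached at most 9.67 CPM, and the platelet genes *Pf4* and *Ppbp* summed to at most 7.51 CPM. S+P C7 replicate 3 held 16496.3 CPM of the 2 erythroid genes, led by *Hba-a1*, and 1316.3 CPM of the myeloid list, led by *H2-Aa*, at a *Smad3* level of 1.17 CPM.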

How the data were processed

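RNA-Seq was done on TFGS by the authors with SmartSeq2. Per the labels and methods, the authors trimmed reads with cutadapt 3.4, aligned with STAR 2.6.1b (build GRCm39), kept uniquely mapped reads, counted with featureCounts 2.0.1, and deposited raw counts per gene and library (56 libraries, 6636532 to 32625243 counts). The strand option and annotation release are not given in the sources used here, so reads of *Smad4*, *Tgfbr2* and *Tgfbr3* cannot be told apart from those of genes annotated on the other strand within them (2, 1 and 1 genes). *Tgfbr3* also overlaps 3 annotated genes on its own strand. The libraries carry no molecular identifiers, so a count is a read and not a molecule.

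Genes were placed with GENCODE M39. Technical libraries were summed per replicate number and subset. The identical library was dropped from both groups and the near-identical pair averaged (r 0.998 across genes against at most 0.937 between libraries of one replicate number and subset), which left 30 samples. edgeR 4.0.16 in R 4.3.3 fitted all 7 groups (TMM scaling, filterByExpr at its minimum of 10 counts, a robust two-sided quasi-likelihood test) with Benjamini-Hochberg adjustment over 19659 genes. A call needed an adjusted p below 0.1 and a log2 fold change of more than 0.9 in size, and the SE is the log2 fold change over the root of F. The fit was tested on simulated data for S+P C5 vs. Sensitized, where it missed most of the genes given a change. A count of 0 genes called thus does not show that the genes did not change. Tables and plots used Python 3.11.15, pandas 2.3.3, numpy 2.4.6 and matplotlib 3.10.9.

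Subsets with 1 replicate number within N+P or within S+P were treated as pairs, which the labels do not state to be 1 mouse. The S+P C7 sample that joins numbers 1 and 2 was set beside number 1. The mean correlation of their deviations was 0.047 to 0.174 for the same number, and not every pair was over 0.1. Alternatives were DESeq2 1.42.0, RLE scaling, a fit of only the groups compared, a filter at a mean of 10 CPM or none, the replicate number as a block, leaving out each replicate, an adjusted p under 0.05, no minimum fold change, all 56 columns, and dropping the 3 samples that had fewer than 9000 genes detected. The named genes were the 10 members, the genes of each other list past the thresholds, the 2 of each list with the smallest p among the 7 groups, and for the 3 members with the smallest such p the 3 genes with the highest r (mean of at least 10 CPM). Fold changes of the 10 members were given where an unadjusted p was under 0.05, and the genes of the other lists were given by their levels. The interaction of *Smad3* was added. The members, lists and dropped libraries were chosen with earlier results of these data known. Flow cytometry and ATAC-Seq were not analysed here. Results for 1 marker gene are not reported here.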

Additional observations from a re-analysis of the deposited data

Results flagged for a closer look

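5 values in 40 groups of 4 to 6 samples lay far from the rest of their group, where chance flags about 1 in 20 groups. *Smad3* in Sensitized replicate 4 was 93.0 CPM against 65.1 to 65.5 CPM in the other 3 samples. *Smad2* in S+P C4 replicate 3 was 199 CPM against 19.7 to 72.6 CPM, and *Skil* in the same sample was 231 CPM against 33.4 to 105 CPM. *Skil* in S+P C5 replicate 3 was 173 CPM against 35.2 to 78.7 CPM. *Tgfbr1* in S+P C7 replicate 3 was 0 CPM against 13.3 to 14.9 CPM. 3 of the 5 values were in samples with under 9000 detected genes.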

How the results depend on the processing

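Of 290 recomputed counts of genes called, 286 equalled the reported 0 and 4 did not. DESeq2 called 1 gene (*Smad3*) in S+P C5 vs. Sensitized and 1 (*Smad3*) in S+P C5 vs. S+P C4. Without the 3 samples with under 9000 detected genes, 1 gene (*Smad3*) was called in S+P C5 vs. Sensitized and 2 (*Smad3* and *Smad7*) among the 7 groups. The cause was not tested. Leaving out each replicate in turn left every count at 0. The 5 fold changes given kept their sign under all alternatives run. *Smad3* ranged from -2.81 to -2.15 in S+P C5 vs. Sensitized (adjusted p 0.0343 to 0.578), from -3.04 to -2.23 in S+P C5 vs. S+P C4 (0.0038 to 1) and from 1.41 to 2.19 in S+P C7 vs. S+P C5 (0.159 to 1). *Smad7* in S+P C7 vs. Sensitized ranged from -3.24 to -1.67 (0.141 to 1) and *Tgfbr2* in S+P C5 vs. S+P C4 from -0.98 to -0.19 (0.22 to 1).

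With the replicate number as a block, 0 of the 10 genes were called in each comparison, as without it. *Smad3* was then -2.51 ± 0.63 in S+P C5 vs. Sensitized (adjusted p = 0.578) and -3.04 ± 1.13 in S+P C5 vs. S+P C4 (adjusted p = 0.999). Sensitized and S+P mice share only a number, so the block in S+P C5 vs. Sensitized matched different mice. The pairing of subsets by number is an assumption, since the labels give a number and state no shared mouse, with correlations of deviations of at least 0.017. DESeq2 called 5.32% of all genes in S+P C5 vs. Sensitized and 4.66% in S+P C5 vs. S+P C4, against 0.0712% and 0.0305% by edgeR. With 200 cells per library, a level of 0 for a gene as low as *Tgfb1* does not show that the gene was off.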
